A study of Mus musculus with 6 samples.

Results

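Oncostatin M and leukaemia inhibitory factor (LIF) are cytokines of the interleukin-6 family, and the 10 genes described here encode these ligands, the receptors of the family and the STAT3 arm they switch on. The genes were taken by name from a deposited list of 50559 mouse genes: the ligands Osm and Lif, the receptor chains Osmr, Lifr, Il6ra, Cntfr, Il11ra1 and Il6st, the transcription factor Stat3 and the feedback inhibitor Socs3. They were chosen by role in the pathway and with the overexpression against control values of these libraries already known, above all those of Osmr, so their differences between the groups are given as a description and are not tests.

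Ligands of this family bind receptor chains that pair with gp130, the shared signalling chain encoded by Il6st. Kinases of the JAK family bound to these chains then phosphorylate STAT3, which enters the nucleus and switches on genes that include Socs3, whose product in turn blocks the receptor complex. Mouse oncostatin M signals mainly through OSMR with gp130, LIF through LIFR with gp130, and CNTF through its alpha chain CNTFR with LIFR and gp130, whereas IL-6 and IL-11 use their alpha chains with gp130 alone. In the brain the pathway is known for its part in astrocyte differentiation and in the response of astrocytes and vessels to injury.

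The data are RNA sequencing libraries of the auditory cortex of C57 mice. There were 3 libraries with the genotype label WNT3 control and 3 with the label WNT3 Overexpressing, and the study looked for molecular changes after overexpression of WNT3, a secreted Wnt ligand. Where values are given for each library, they are in the order of libraries 1, 2 and 3. The labels do not give the age of the mice, how WNT3 was overexpressed, what the controls received or whether replicates were separate animals, so any p-value measures only the spread between these samples. The tissue label reads auditory cortex, while the extraction protocol names striatum.

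Total counts ranged from 42614588 to 71803617 per library, and 22360 genes had enough counts to be tested. Wnt3 was at 1.74 to 2.70 TMM-normalised CPM (counts scaled to library size) in the controls against 98.8, 7.45 and 8.71 CPM with overexpression. The 6 markers of cortical excitatory neurons summed to 1059 to 1183 CPM in the 6 libraries, and the 6 markers of striatal projection neurons to 143 to 271 CPM. Control 2 stood apart from the other 5 libraries. Genes were split by transcript length into 3 equal classes, and the median log2 level of each class was taken relative to the control mean. The longest class lay below the shortest by 0.82 in control 2 (a difference of -0.82), and above it by 0.36 to 0.44 in the other libraries. The control mean includes control 2, so the values of the other libraries partly reflect that library. Because control 2 stood apart, the changes of the members and the list medians are given with and without it where it moves them.

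The receptor and signal genes differed by group to unequal degrees. Osmr lay higher in each overexpression library than in any control, and so did Stat3 by a small margin. Il6ra and Socs3 had higher means with groups that overlapped, the ligand Osm had reads in overexpression libraries 1 and 2 only, and the log2 fold changes of Cntfr, Il6st and Il11ra1 were 0.10, -0.04 and -0.06 without control 2. At an adjusted p of 0.05 edgeR's quasi-likelihood fit called 0 of the 22360 tested genes (0%), members included, and its lowest adjusted p was 0.822. Before adjustment, 1040 genes (4.65%) had a p under 0.05, and Osmr and Il6ra were among them. DESeq2 called 64 genes (0.25%), among them Osmr (adjusted p = 0.00361), and limma voom called 0 (1032 at an unadjusted p under 0.05). Nothing is read from these shares about the members, because this contrast was used to choose them.

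**Figure D1:**
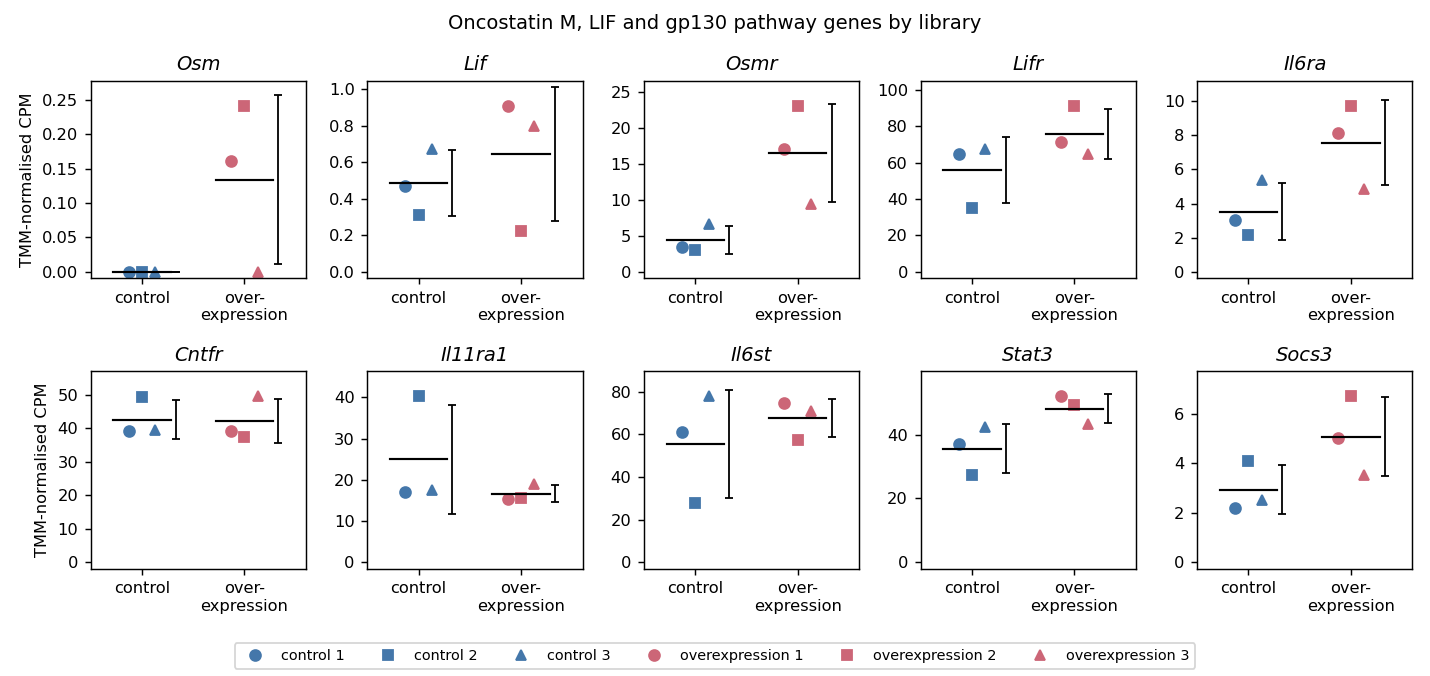
TMM-normalised CPM (vertical axis of each panel, from 0) of the 10 genes in the 3 control and 3 overexpression libraries. Points are libraries, horizontal lines are group means and bars are the SD of 3 libraries. Osmr is at 9.44 CPM or more in overexpression and at 6.61 CPM or less in the controls, while control 2 stands apart for Lifr, Il6st and Il11ra1.

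Among the ligands, Osm, which myeloid cells such as neutrophils and macrophages are known to release, was close to the limit of detection. It had 0 counts in each of the 3 controls, 9 and 15 counts in overexpression libraries 1 and 2, and 0 in overexpression library 3. These counts correspond to 0.16, 0.24 and 0 CPM in the 3 overexpression libraries. The groups thus shared the value 0, and the gene had too few counts to be tested. Against a floor of 3 counts over the control group (0.0203 CPM), the pooled overexpression level of 0.13 CPM was 6.23-fold higher. This bound allows for counting error in the controls only and takes the 24 pooled overexpression counts as exact. The bound was 3.48 without overexpression library 2, 3.93 without control 2 and 9.99 without overexpression library 3.

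Lif, a cytokine that supports stem cells and is released after neural injury, was measured at under 1 CPM in all libraries. Its levels were 0.47, 0.31 and 0.67 CPM in control against 0.91, 0.22 and 0.80 CPM with overexpression. Overexpression library 2 held the lowest Lif level of the 6 libraries and the highest Osm level. The fitted log2 fold change of Lif was 0.41 ± 0.60 (SE), smaller than its error. Leaving out control 2 gave 0.17, leaving out overexpression library 1 gave 0.08, and leaving out overexpression library 2 gave 0.81.

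Osm and Lif lie in tandem on chromosome 11 of the mm10 assembly (GENCODE M21 annotation), at positions 4236420 to 4241026 and 4257557 to 4272514, both on the plus strand. They are separated by 16530 bases with no other annotated gene between them. Their order over the libraries was not shared, as the levels above show.

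Osmr encodes the chain that makes a receptor complex specific for oncostatin M, and it had the largest difference of the 9 tested genes. It was at 3.52, 3.06 and 6.61 CPM in control, a mean of 4.40 ± 1.93 (SD, n = 3), against 17.1, 23.1 and 9.44 CPM with overexpression, a mean of 16.5 ± 6.84 (SD, n = 3). Control 3 and overexpression library 3 were the nearest libraries of the opposite groups, and the groups did not overlap. A log2 fold change of 1.91 ± 0.41 (SE) was fitted, which became 1.70 when control 2 was left out, 1.58 without overexpression library 2 and 2.33 without control 3. Of the 9 tested members, 2 had groups that did not overlap, Osmr and Stat3, against 11.9% of all tested genes. In bulk tissue, more RNA per cell and more cells of a type that carries the RNA cannot be told apart.

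Lifr encodes the chain that gp130 pairs with for LIF and CNTF. It was at 65.0, 35.3 and 67.7 CPM in control against 71.5, 91.3 and 64.8 CPM with overexpression. Overexpression library 2 was the highest and control 2 the lowest, and overexpression library 3 lay below control 3. The fitted difference of 0.44 ± 0.27 (log2, SE) became 0.19 without control 2 and 0.27 without overexpression library 2.

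Osmr and Lifr are neighbours on chromosome 15, at positions 6813577 to 6874969 on the minus strand and 7090614 to 7197489 on the plus strand, with no protein-coding gene in the 215644 bases between them. The ratio of Osmr to Lifr in the authors' deposited TPM (a level per transcript length) does not depend on library scaling. It was 0.10, 0.15 and 0.18 in control against 0.49, 0.51 and 0.26 with overexpression. The ratio of Osmr to Il6st was 0.06, 0.11 and 0.09 in control against 0.26, 0.45 and 0.13 with overexpression. Both ratios lay higher in each overexpression library than in any control, whereas the ratio of Lifr to Il6st, at 0.49 to 0.72 in the controls and 0.51 to 0.89 in overexpression, overlapped.

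Il6ra encodes the alpha chain that binds interleukin-6. It was at 3.05, 2.13 and 5.36 CPM in control against 8.13, 9.72 and 4.85 CPM with overexpression. Overexpression libraries 1 and 2 lay above all controls, but overexpression library 3 lay below control 3, so the groups overlapped. Its log2 fold change of 1.11 ± 0.41 (SE) ranged from 0.84 without control 2 to 1.55 without control 3. An antisense gene model, Gm42809, shares 242 exon bases with Il6ra and is not a separate row of the count table, so reads of the pair cannot be told apart if strand was not used in counting.

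Cntfr, the alpha chain for ciliary neurotrophic factor, had nearly equal group means. It was at 39.0, 49.3 and 39.3 CPM in control against 39.3, 37.5 and 49.5 CPM with overexpression. Control 2 and overexpression library 3 were the highest libraries of their groups, at nearly the same level. Its fitted log2 fold change was -0.02 ± 0.19 (SE).

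Il11ra1, the alpha chain for interleukin-11, had a lower overexpression mean that rested on control 2. It was at 17.2, 40.3 and 17.6 CPM in control against 15.2, 15.7 and 19.0 CPM with overexpression. The fit gave it a difference of -0.59 ± 0.34 (log2, SE) with all libraries and -0.06 without control 2. Il11ra1 has a close copy, Il11ra2, which was also highest in control 2, at 6.03 CPM against 1.75 to 3.07 CPM in the other libraries. Reads may be split between the copies, so both values are uncertain. Cntfr and Il11ra1 are neighbours on chromosome 4, with 2899 bases between positions 41657498 to 41697089 and 41699989 to 41769474.

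Il6st encodes gp130, the chain that all these receptors share. It was at 61.0, 27.9 and 77.7 CPM in control against 74.5, 57.3 and 70.8 CPM with overexpression. Control 1 lay within the range of the overexpression libraries, control 3 just above it and control 2 far below it. A log2 fold change of 0.28 ± 0.34 (SE) was fitted with all libraries, and one of -0.04 without control 2. Il6st lies on chromosome 13, at positions 112464070 to 112510086 on the plus strand.

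**Figure D2:**
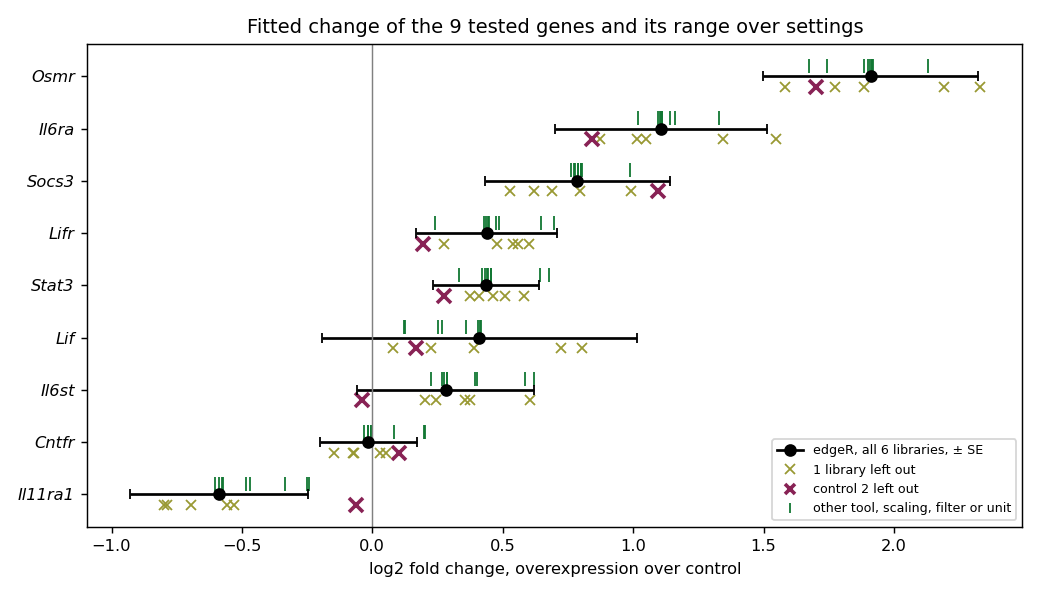
Log2 fold change of overexpression over control (horizontal axis) for the 9 tested genes. Black points with bars are the edgeR fit ± SE, crosses leave out 1 library each (bold for control 2) and vertical ticks are other tools, scalings, filters or units. The values of Osmr, Il6ra, Socs3, Stat3, Lifr and Lif stay above 0 throughout, though the SE bar of Lif crosses 0. Il6st and Il11ra1 lie at -0.04 and -0.06 without control 2.

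Stat3, the transcription factor that gp130 receptors activate, had a small difference with groups that did not overlap. It was at 37.0, 27.3 and 42.5 CPM in control, a mean of 35.6 ± 7.66 (SD, n = 3), against 52.0, 49.3 and 43.2 CPM with overexpression, a mean of 48.1 ± 4.50 (SD, n = 3). Overexpression library 3 lay just above control 3. The fitted difference was 0.44 ± 0.20 (log2, SE), and 0.28 without control 2. Stat3 occupies positions 100885098 to 100939540 of chromosome 11, minus strand, and shares 72 exon bases with Stat5a on the other strand. RNA levels do not show phosphorylation, the step that activates STAT3.

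Socs3, the feedback inhibitor that STAT3 induces, was low. It was at 2.21, 4.07 and 2.53 CPM in control, a mean of 2.94 ± 0.996 (SD, n = 3), against 5.01, 6.70 and 3.52 CPM with overexpression, a mean of 5.08 ± 1.59 (SD, n = 3). Control 2 was the highest control and lay above overexpression library 3, so the groups overlapped. Its log2 fold change was 0.79 ± 0.36 (SE). Without control 2 it was 1.10 and the groups no longer overlapped, as for 21.9% of all tested genes in that setting, and without overexpression library 2 it was 0.53.

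STAT proteins bind the palindrome TTCNNNGAA. Of 16 upstream windows over 9 of the 10 genes, 1 holds these letters. It lies before the RefSeq start of Socs3 and is shown for that reason. The windows are the 250 bases before each RefSeq start (assembly GRCm38.p6), searched on both strands, and 7.02% of all 32851 such windows hold the palindrome. Stat3 is shown for comparison, as a gene with a higher overexpression mean whose window holds none. Capitals mark the palindrome, which in Socs3 lies 146 bases before the RefSeq start at chromosome 11, positions 117969512 to 117969520. The Socs3 stretch is chr11:117969452-117969616 and the Stat3 stretch chr11:100939541-100939790, both on the minus strand and written 5′ to 3′.
Socs3: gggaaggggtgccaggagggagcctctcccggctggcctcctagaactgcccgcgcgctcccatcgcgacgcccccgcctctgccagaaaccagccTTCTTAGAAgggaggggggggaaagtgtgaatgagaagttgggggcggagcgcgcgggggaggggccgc
Stat3: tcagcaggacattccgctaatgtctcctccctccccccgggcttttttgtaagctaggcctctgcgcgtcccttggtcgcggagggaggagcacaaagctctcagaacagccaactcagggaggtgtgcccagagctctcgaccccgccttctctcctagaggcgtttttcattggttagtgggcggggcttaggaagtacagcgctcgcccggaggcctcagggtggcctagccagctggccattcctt
The Socs3 stretch stops where an exon of another GENCODE transcript begins. GENCODE M21 places the Socs3 gene at positions 117966079 to 117970047 on the minus strand. The stretch and its palindrome thus lie inside the gene as GENCODE annotates it, though before the RefSeq start. The Osmr and Il6ra windows lie wholly inside GENCODE exons and are not shown. The Osmr window holds neither the palindrome nor TGANTCA, the AP-1 palindrome, which was found in 6.75% of all windows and, among the members, in the window of Lif. The GC content of the 16 windows ran from 50.8% to 82.4%, against a median of 52.4% over all windows. A match is a description of the letters and says nothing about binding.

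Levels of different genes were compared only per transcript length, in the authors' deposited TPM. In the controls the order was Cntfr at 43.1 ± 2.58, Il11ra1 at 28.3 ± 8.24, Il6st at 23.1 ± 13.3, Stat3 at 17.4 ± 6.53 and Lifr at 12.9 ± 5.91 TPM (SD, n = 3). The place of Il11ra1 above Il6st rested on control 2, at 37.8 against 8.37 TPM. Il6st was the higher in every other library. Il6ra at 2.33 ± 1.38, Socs3 at 2.20 ± 0.27 and Osmr at 1.86 ± 1.09 TPM formed a lower tier, followed by Lif at 0.23 ± 0.12 TPM and by Osm, listed at 0. Neighbours from Il11ra1 to Lifr lay within each other's spread, as did the 3 genes of the lower tier. In overexpression Osmr stood at 8.33 ± 3.88 TPM, above Il6ra at 5.57 ± 1.91 and Socs3 at 4.61 ± 1.49 TPM (SD, n = 3), with spreads that overlapped, and below Lifr at 19.2 ± 3.66 TPM. Differences between the groups were shifted upwards in TPM: the median log2(TPM + 1) difference of all tested genes was 0.14, against -0.01 for the fitted counts. Control 2 was low in TPM relative to CPM. For Cntfr it was the highest control in CPM (49.3) and the lowest in TPM (40.2). For Socs3 it stood at 4.07 CPM and 2.47 TPM, against 2.53 CPM and 2.21 TPM in control 3. On TPM the groups also did not overlap for Socs3 and Cntfr, a total of 4 of the 9 tested members, against 14% of all tested genes on TPM.

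**Figure D3:**
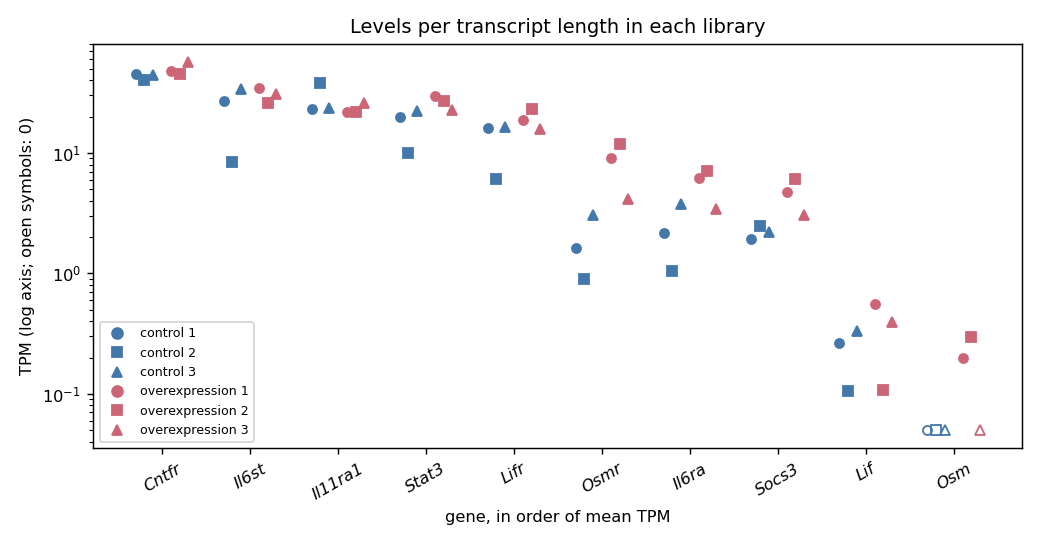
TPM of the 10 genes in each library, on a log axis, in order of mean TPM. Points are libraries, blue for control and red for overexpression, and open symbols at the bottom stand for a TPM of 0. The receptor chain genes Cntfr, Il6st, Il11ra1 and Lifr lie in an upper tier with Stat3, and Osmr moves from a mean of 1.86 to 8.33 TPM within the tier below.

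Over the 6 libraries, Il6ra and Stat3 followed Osmr most closely among the members. The Pearson correlation of log2 CPM with Osmr was 0.97 for Il6ra, 0.89 for Stat3, 0.78 for Lifr, 0.74 for Socs3 and 0.52 for Il6st, and it was -0.43 for Cntfr and -0.67 for Il11ra1. These points share the group difference and the depth of the same 6 libraries, and the values are a description. With group means removed, the correlation was 0.97 for Il6ra, 0.75 for Stat3, 0.70 for Lifr, 0.40 for Il6st and 0.31 for Socs3, and it was -0.82 for Cntfr and -0.56 for Il11ra1. Among 16658 other genes with a mean of at least 1 CPM, the 8 named genes most like Osmr over the same 6 libraries were Slco2b1, Epc1, Ripk1, Runx1, Cyp1b1, Slc31a1, Txnip and Hacd2, with correlations of 0.98 to 0.99. Runx1, a transcription factor of blood cell lineages, was at 0.87, 0.75 and 1.05 CPM in control against 2.18, 3.33 and 1.61 CPM with overexpression. Slco2b1, a transporter of organic anions, was at 14.2 to 17.2 CPM in the controls and at 19.4 to 23.2 CPM in overexpression. Both had overexpression library 2 highest and control 2 lowest, as Osmr did, which follows from how they were picked.

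The other ligands and receptor chains of the interleukin-6 family were sparse. Of 13 listed genes, 8 passed the filter on low counts, of which 2 were higher and 6 lower in overexpression, and 0 passed over all genes by edgeR (0 at an unadjusted p under 0.05, and 0 by DESeq2). Their median log2 fold change was -0.62, against -0.01 for all tested genes, but it was 0.05 without control 2. Cntf, the ligand of Cntfr, was at 0.87, 2.95 and 1.82 CPM in control against 0.77, 0 and 1.30 CPM with overexpression. Il6, the founding ligand, had at most 0.23 CPM in any library and could not be tested. Il27, Il31, Il31ra and Ctf2 were also too low to test.

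The kinases and signal transducers of the pathway had small differences, nearly all in 1 direction. All 14 passed the filter on low counts, 13 had a log2 fold change above 0 (against 49.3% of all tested genes), and 0 passed over all genes by edgeR (0 at an unadjusted p under 0.05, and 0 by DESeq2). The groups did not overlap for 6 of the 14, all in the higher direction (against 5.89% of all tested genes). This list was chosen with results of these libraries known, so these counts are a description. The median log2 fold change of the 14 was 0.26 (0.21 without control 2). The median over these genes, relative to the control mean of each gene, stood at 0.06, -0.08 and 0.10 (log2) in control and at 0.23, 0.23 and 0.27 with overexpression. Jak2, a kinase of cytokine receptors, had a log2 fold change of 0.40 ± 0.23 (SE), Jak3, a kinase of leukocytes, one of 0.59 ± 0.28, and Stat6, the transcription factor of interleukin-4 signalling, one of 0.39 ± 0.19.

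Negative regulators other than Socs3 had differences near 0. Of 15 tested genes of the SOCS, PIAS and phosphatase families, 11 had a higher and 4 a lower overexpression level. Their median log2 fold change was 0.16 (0.04 without control 2), and 0 passed over all genes by edgeR (0 at an unadjusted p under 0.05, and 0 by DESeq2). Pias2, a SUMO ligase that binds STAT proteins, was the 1 gene of the 15 whose groups did not overlap (against 11.9% of all tested genes). Its log2 fold change was 0.34 ± 0.21 (SE). Ptprt, a receptor phosphatase that acts on STAT3, had one of 0.37 ± 0.32, Socs6 one of 0.30 ± 0.22 and Pias1 one of 0.22 ± 0.18 (SE).

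Genes known to be induced by STAT3 or by cytokines of this family lay on both sides of 0. Of 43 listed genes, 38 were tested, of which 27 were higher and 11 lower. The list's median log2 fold change was 0.43 (0.36 without control 2). By edgeR 0 passed over all genes, 13 reached an unadjusted p under 0.05 in the higher direction (against 1.86% of all tested genes) and 3 in the lower (against 2.8%). DESeq2 called 6: Lcn2, Serpina3n, Il1r1 and A2m as higher, and Junb and Fos as lower. The list was compiled with results of these libraries known, so its direction is not independent evidence.

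Lcn2, Ch25h, A2m and Il1r1 had the largest differences of that list among genes with a mean of at least 1 CPM. Lcn2, an iron-binding protein of the acute phase, was at 0, 0.39 and 0.14 CPM in control against 7.47, 37.1 and 1.88 CPM with overexpression. A2m, a protease inhibitor of the acute phase, was at 0.45, 0.68 and 1.03 CPM in control against 3.83, 2.38 and 2.35 CPM with overexpression. Il1r1, the interleukin-1 receptor, was at 5.19, 2.86 and 5.16 CPM in control against 12.4, 19.1 and 12.8 CPM with overexpression. These groups did not overlap, and Lcn2 and Il1r1, like Osmr, were highest in overexpression library 2. Ch25h, an enzyme that makes an oxysterol, was at 0.16, 0.57 and 0.95 CPM in control against 3.07, 4.10 and 0.71 CPM with overexpression, so overexpression library 3 lay within the control range.

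Other genes of the list had lower overexpression levels. Junb, an immediate early gene, was at 29.3, 73.8 and 38.8 CPM in control against 13.4, 15.4 and 16.3 CPM with overexpression, and Fos, Gadd45g and Cebpb also had groups that did not overlap, with lower overexpression levels. These 4 genes, named after their values were seen, were all highest in control 2. Over the 38 genes, 9 had groups that did not overlap in the higher direction (against 5.89% of all tested genes) and 4 in the lower (against 6.04%).

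**Figure D4:**
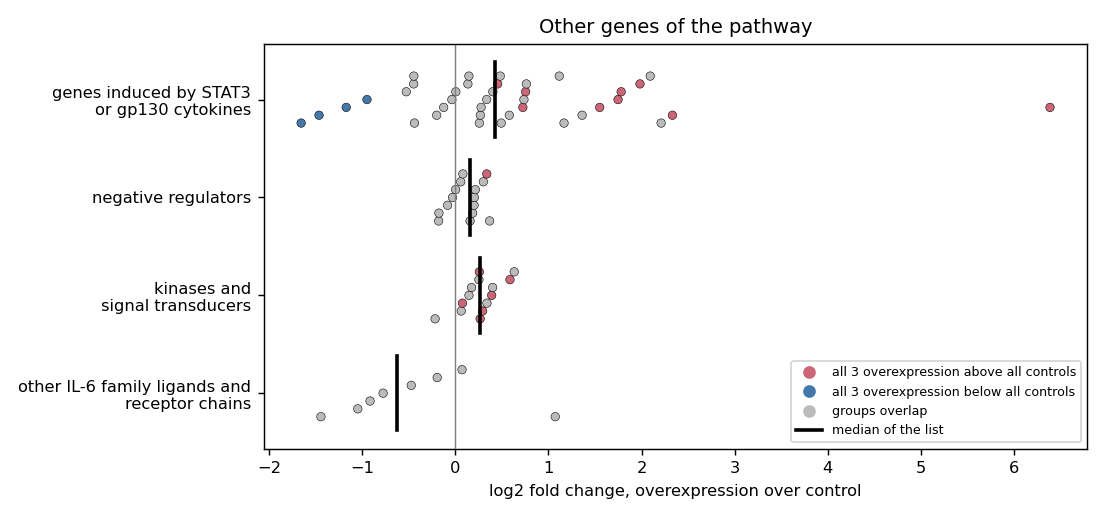
Log2 fold change of overexpression over control (horizontal axis) for each tested gene of 4 pathway lists that hold none of the 10 members. Points are genes, coloured red or blue where all 3 overexpression libraries lie above or below all controls, and black bars are list medians. Genes induced by STAT3 or the cytokines spread on both sides of 0, with a median of 0.43, and the kinases and transducers cluster just above 0.

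Markers of several cell types also had higher levels in overexpression. Of 11 neutrophil markers, 8 were tested and 7 of these were higher (against 49.3% of all tested genes). Of the 7, Mmp8, Retnlg, Ngp and Ltf were at 0.22 CPM or less in each control. They passed the filter on low counts through the overexpression libraries, so their direction was set by the filter. The 11 markers summed to 6.43 to 9.48 CPM in the controls against 32.8, 52.8 and 14.6 CPM with overexpression. Csf3r, at 4.92 to 6.24 CPM in the controls, made up most of the control sum. Mmp8 and Ly6g were at 0 in all controls, and Ly6g, too low to test, was also at 0 in overexpression library 3. Mmp9 was the 1 tested marker that was lower, with a log2 fold change of -0.11 ± 0.40 (SE). The 6 markers of infiltrating monocytes summed to 22.8 to 37.8 CPM in control against 77.8, 82.2 and 46.7 CPM with overexpression, where Fn1, a matrix gene that other cells also express, made up most of the sum. All 4 tested monocyte markers were higher, though Ccr2, at 0.31 CPM or less in each control, passed the filter partly through the overexpression libraries. Without Fn1 the monocyte sum was 2.30 to 3.28 CPM in control against 11.97, 5.75 and 3.35 CPM with overexpression, and each of the 5 other markers was highest in overexpression library 1. The 9 endothelial markers summed to 226 to 251 CPM in control against 337, 475 and 288 CPM with overexpression. Of the 9, 7 were higher (against 49.3% of all tested genes). The rise was uneven: 3 had groups that did not overlap (against 5.89% of all tested genes in the higher direction). Among them were Flt1 (mean 54.0 against 97.7 CPM) and Vwf (9.84 against 48.4 CPM). Cldn5 and Kdr had lower means. In the neutrophil and endothelial sums overexpression library 2 was the highest and overexpression library 3 the lowest of its group, the order seen for Osmr. The monocyte sum had that order with Fn1 but not without it. In the controls Osmr was at 3.52, 3.06 and 6.61 CPM. The neutrophil sums (7.65, 9.48 and 6.43 CPM) and endothelial sums (251, 226 and 226 CPM) of the controls did not follow it. The monocyte sums with Fn1 did (35.5, 22.8 and 37.8 CPM). The part of these cells in the levels of Osm, Osmr, Il6ra and Socs3 was not tested.

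Other cell types did not show the order of Osmr among the overexpression libraries. The 8 astrocyte markers summed to 3940 to 7212 CPM in the controls and to 5729 to 6223 CPM in overexpression, the 8 microglia markers to 314 to 438 and 261 to 414 CPM, and the 5 oligodendrocyte markers to 4146 to 6215 and 2806 to 5868 CPM. The 6 markers of meningeal fibroblasts summed to 16.0 to 26.7 CPM in control against 54.6, 28.3 and 18.7 CPM with overexpression, with all 6 higher on average and groups that overlapped in sum. The 4 choroid plexus markers summed to 2.06 to 4.37 CPM in the controls and 3.04 to 7.12 CPM in overexpression, and the 5 lymphocyte markers to 0.94 to 2.87 and 1.91 to 14.7 CPM. The highest lymphocyte value was that of overexpression library 1, where the immunoglobulin gene Igkc was at 11.1 CPM.

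**Figure D5:**
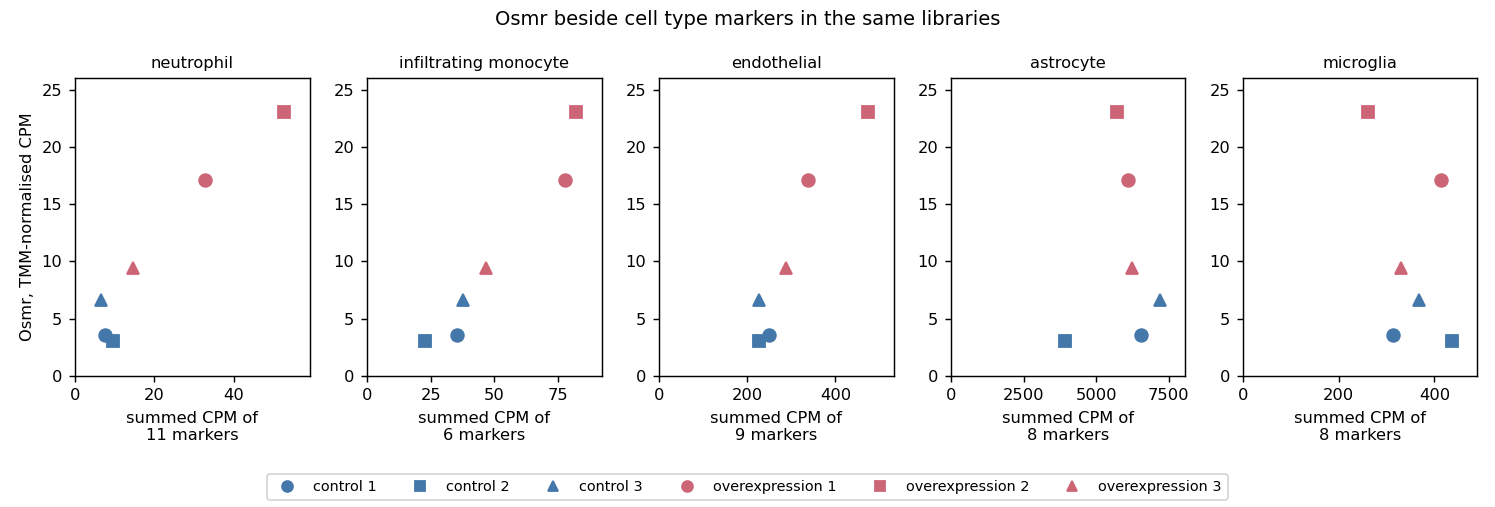
Osmr in TMM-normalised CPM (vertical axis) against the summed CPM of the markers of 5 cell types (horizontal axes, from 0). Points are the 6 libraries, blue for control and red for overexpression. Among the overexpression libraries Osmr has the order of the neutrophil and endothelial sums, and of the monocyte sum through Fn1. Among the controls the neutrophil and endothelial sums do not follow Osmr. The astrocyte and microglia sums of the groups overlap.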

How the data were processed

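RNA was measured in 6 libraries, 3 control and 3 overexpression, from strand-specific TruSeq preparations, per the labels' protocols. Build mm10 is named in the submitters' processing notes, together with STAR 2.5.3a, FastQC 0.11.5, DESeq 1.16.1 and Cuffnorm, without roles. The authors deposited whole-number counts per gene and, in a separate table, TPM. How reads were counted, with which annotation and whether by strand, is not given in the sources used here. Columns were matched to samples by library name.

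Genes were kept by filterByExpr (minimum count 10). Groups were compared with the edgeR 4.0.16 quasi-likelihood test in R 4.3.3 (TMM, group as the only term, Benjamini-Hochberg over all tested genes at 0.05). SE is the log2 fold change over the square root of F. CPM uses TMM-scaled library sizes, and correlations used log2 CPM with a prior count of 2. The fit was tested on simulated data. Alternatives were RLE scaling, other filters, DESeq2 1.42.0, voom (limma 3.58.1), limma-trend on TPM with a pseudocount of 1 or 0.1 before the log2, a replicate block and omission of each library. Removal of a trend on transcript length (loess span 0.3, length from the ratio of counts to TPM, known for 21741 genes) was chosen after seeing the data.

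The members, the 4 pathway lists, the marker lists and the rule for names were chosen with earlier results of these data known. The rule named all members and, from each pathway list, the 4 tested genes with a mean of at least 1 CPM and the largest absolute log2 fold change (2 such genes in the ligand and receptor list), every list gene past the adjusted threshold, and the 8 named genes most like Osmr. One gene that the rule names is not reported here. Coordinates are from GENCODE M21 and upstream sequences from RefSeq GRCm38.p6, in which all 10 members were found by name; 9 had an upstream window.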

Additional observations from a re-analysis of the deposited data

How the results depend on the processing

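Counts were scarce for Osm, Lif and the other family ligands, and 3 libraries a group limit every value. No gene (0) passed in any edgeR, voom or TPM setting, including each library left out, an adjusted p of 0.1 and the replicate block (0 genes), whereas DESeq2 called 64. Whether libraries of the same number form pairs could not be settled. Deviations of same-numbered libraries correlated at 0.06, -0.02 and -0.01, but 3 libraries a group cannot exclude pairing. With the replicate block the log2 fold change of Osmr was 1.92. The log2 fold changes of Osmr, Il6ra, Socs3, Stat3 and Lifr were above 0 in all 15 alternatives, and that of Lif in all 14 that fitted it. That of Il6st was above 0 in 14 of 15, and that of Cntfr in 6 of 15. Members whose groups did not overlap numbered 4 on either TPM scale (14% of all tested genes), and 2 to 6 with single libraries left out (18.7% to 25.4% of all tested genes), with 6 (Osmr, Il6ra, Socs3, Stat3, Lifr and, lower in overexpression, Il11ra1, against 23% of all tested genes) without overexpression library 3. The median of kinases and transducers was 0.49 on log2(TPM + 1), 0.54 on log2(TPM + 0.1) and 0.17 with the length trend removed. Of the other ligands and receptor chains, 5 were higher with no filter, 0 with a minimum CPM of 1 and 1 to 4 with single libraries left out. The causes were not tested.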
